A study of Mus musculus with 20 samples.

Results

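T cell receptor gene segments were read from RNA-seq counts of mouse pancreatic tumours and of the leukocytes sorted from them. A segment was kept when its symbol began as a receptor variable, diversity, joining or constant segment and its row held at least 100 counts summed over all 20 libraries. Of 46983 genes in the table, 258 rows carried such a symbol and 55 of them reached 100 counts. The 55 comprised 30 alpha variable segments (Trav), 19 beta variable segments (Trbv), 1 delta variable segment (Trdv4), 1 gamma variable segment (Trgv2) and the constant segments Trac, Trbc1, Trbc2 and Trdc. The count total alone chose them, so the levels that follow describe the segments and no test was made of them being expressed. Just inside the limit stood Trav19 with 100 counts and Trav7-6 with 104, and just outside it Trav5-4 with 95 and Trav6d-4 with 94.

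There were 4 groups of 5 libraries. Every tumour had grown orthotopically, in the pancreas, from KPC cells, a cultured mouse pancreatic cancer line, and was taken at 2 weeks without treatment. The hosts were C57BL/6 mice that were either IL33-/- (libraries labelled IL33KO) or wild type (WT). From each host genotype there were sorted libraries, made from CD45+ tumour leukocytes selected on magnetic beads, and bulk libraries, made from the tumour. The groups were therefore sorted IL33KO, sorted WT, bulk IL33KO and bulk WT. The deletion was in the host, while the tumour cells came from the implanted KPC line. The labels name 5 mice of each genotype without tying a library to a mouse, so a p-value here reflects only how far these libraries scatter, and that scatter can be technical. They also do not say whether a sorted and a bulk library came from the same tumour.

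A T cell receptor is assembled by V(D)J recombination, in which a developing T cell joins a variable segment, for beta and delta chains a diversity segment, and a joining segment, and splices the result to a constant segment. Alpha and beta chains form the receptor of CD4+ and CD8+ T cells, and gamma and delta chains that of gamma delta T cells, which are common in epithelial tissues. Each T cell carries its own joined segments and passes them to its descendants, so a large clone adds transcripts of the same V segments. The receptor reaches the surface together with the CD3 chains, encoded by Cd3d, Cd3e, Cd3g and Cd247. In a mixed sample fewer T cells and less receptor RNA per cell cannot be told apart.

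The V segments on which the results turn are shown by the last 60 bases of their coding sequence, 5′ to 3′, as annotated by GENCODE M21 on GRCm38. The capitals mark the codon of the conserved cysteine, after which the region that contacts antigen, the third complementarity-determining region, is built by joining. Trbv13-1 and Trav10 were high together in some libraries, as were Trbv14 and Trav13-2, and the other 4 led or varied most elsewhere.
Trbv13-1 (chr6:41116409-41116468, plus strand): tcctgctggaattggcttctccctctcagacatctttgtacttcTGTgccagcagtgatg
Trav10 (chr14:53506227-53506286, plus strand): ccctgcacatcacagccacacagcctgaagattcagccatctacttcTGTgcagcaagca
Trbv14 (chr6:41135557-41135616, plus strand): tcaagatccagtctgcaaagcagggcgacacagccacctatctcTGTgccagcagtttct
Trav13-2 (chr14:53635340-53635399, plus strand): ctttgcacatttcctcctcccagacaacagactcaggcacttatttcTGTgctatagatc
Trbv13-2 (chr6:41121773-41121832, plus strand): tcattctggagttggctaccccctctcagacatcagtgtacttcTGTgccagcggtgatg
Trbv16 (chr6:41152171-41152230, plus strand): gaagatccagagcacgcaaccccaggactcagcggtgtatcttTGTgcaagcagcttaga
Trbv3 (chr6:41048769-41048828, plus strand): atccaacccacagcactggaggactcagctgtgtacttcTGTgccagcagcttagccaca
Trbv12-1 (chr6:41114008-41114067, plus strand): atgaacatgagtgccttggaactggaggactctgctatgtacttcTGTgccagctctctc

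Not every kind of segment was counted. All 60 Traj, 14 Trbj, 4 Trgj and 2 Trdj joining segments and all 2 Trbd and 2 Trdd diversity segments were listed at 0 in every library. Their annotated exons are 11 to 72 bases long, against 155 to 595 bases for Trav rows. Of the V rows, 55 of 128 Trav and 11 of 35 Trbv were at 0 as well. Sequence shared with other genes went with this. Of 41 functional V rows at 0, 38 had at least 90% of their 50-base windows also present in a transcript of another gene, while the median was 29.2% for the 51 V segments that were kept, none of which reached 90%. Reads that align to several places were left out of the counts. For the V pseudogenes at 0 the median share was 6.60%, so shared sequence did not go with all rows at 0.

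This bears on the invariant receptors. The receptor of invariant natural killer T cells uses Trav11 joined to Traj18, often with Trbv13-2, and that of mucosal-associated invariant T cells uses Trav1 joined to Traj33. Trav11, Traj18 and Traj33 were at 0 in all 20 libraries, and Trav1 had 49 counts in total. Trav11 and its copy Trav11d had identical letters over all 342 bases compared and both were at 0, so the counts hold no measure of Trav11 use in either host. The stretch shown is bases 53 to 172 of each, followed by the whole of Traj18, which has 66 bases and no capitals.
Trav11 (chr14:53519569-53519688, plus strand): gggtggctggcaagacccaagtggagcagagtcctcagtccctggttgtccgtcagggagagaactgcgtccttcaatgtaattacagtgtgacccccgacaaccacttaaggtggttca
Trav11d (chr14:52824623-52824742, plus strand): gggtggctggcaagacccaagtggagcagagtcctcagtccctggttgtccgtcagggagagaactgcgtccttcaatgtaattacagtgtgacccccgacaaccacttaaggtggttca
Traj18 (chr14:54200777-54200842, plus strand): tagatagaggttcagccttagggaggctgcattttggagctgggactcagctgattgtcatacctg

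Trbc1 and Trbc2, the alternative constant segments of the beta chain, are near copies too. Over 518 coding bases they differed at 23, so that 95.6% were the same, and over the 375 bases of exon 1 they differed at 1. Exon 3 held 15 of the differences in 107 bases, shown in capitals. Their counts are given one by one, but how reads were divided between them is uncertain.
Trbc1 (chr6:41539229-41539335, plus strand): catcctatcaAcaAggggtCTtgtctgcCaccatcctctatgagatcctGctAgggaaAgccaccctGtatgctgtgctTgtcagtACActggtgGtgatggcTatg
Trbc2 (chr6:41547772-41547878, plus strand): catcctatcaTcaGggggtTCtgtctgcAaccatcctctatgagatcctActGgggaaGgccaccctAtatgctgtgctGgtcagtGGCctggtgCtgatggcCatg

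Libraries held 51273064 to 80957402 counts in genes, of which the 55 segments made up 1912 to 27382 counts. Il33 itself was counted in every library, at 14.3 to 25.7 CPM (counts relative to library size, after scaling for library composition) in sorted IL33KO, 5.76 to 20.6 CPM in sorted WT, 37.0 to 56.3 CPM in bulk IL33KO and 53.6 to 66.7 CPM in bulk WT. Gene-level counts do not show which part of the gene they come from, so Il33 does not check the genotype labels. The pan-leukocyte list (Ptprc, Coro1a, Laptm5, Cd52, Itgb2) summed to 4999 to 5840 CPM in sorted IL33KO and 5123 to 6510 CPM in sorted WT, against 422 to 860 CPM in bulk IL33KO and 333 to 884 CPM in bulk WT. Macrophage genes outweighed T cell genes in the sorted libraries, with sums of 5605 to 9031 CPM over 6 genes in IL33KO and 9568 to 11751 CPM in WT, against 534 to 1249 CPM and 575 to 1219 CPM over 14 T cell genes. Acinar genes, which encode digestive enzymes of the pancreas, summed to 588 to 34927 CPM in sorted IL33KO (median 2236 CPM), where library 3 was the highest, and to 537 to 3643 CPM in sorted WT.

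Bulk WT 1, 2 and 4 stood apart from the other bulk WT libraries in segment content. Their segment sums were 27.4, 29.0 and 27.4 CPM, against 67.1 and 86.0 CPM in bulk WT 3 and 5. Bulk IL33KO 3 was near them, at 29.9 CPM. The V segment usage of bulk WT 1, 2 and 4 was alike. They were also low in leukocyte and macrophage genes. The pan-leukocyte list summed to 369, 333 and 381 CPM in bulk WT 1, 2 and 4, against 692 and 884 CPM in bulk WT 3 and 5, and the macrophage list to 644, 530 and 710 CPM, against 1251 and 1751 CPM. The part of these in the segment sums was not tested. A chi-square comparison of their V counts, pair by pair, gave 1.08 per degree of freedom for WT 1 and 4 (p = 0.363), 1.23 for WT 2 and 4 (p = 0.222) and 1.49 for WT 1 and 2 (p = 0.0816). Over all genes these 3 pairs had a chi-square of 18.3 to 113 per degree of freedom, and that of WT 1 and 4 was the lowest of all 190 pairs of libraries. No pair known to share a tumour was at hand for comparison, so these values do not show whether the 3 libraries are independent. They were kept as separate libraries because the labels list them so. Each bulk result is also given with these 3 averaged to 1 library where that moved a call, a direction or a value by over 1.5 times. The fits with DESeq2 and limma, given as alternatives, were not repeated with them averaged.

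The constant segments carried most of the receptor signal. They made up 79.3 to 82.6% of segment counts in sorted IL33KO, 82.5 to 87.2% in sorted WT, 80.5 to 88.4% in bulk IL33KO and 76.5 to 86.7% in bulk WT. Trbc2 had the most counts of all segments, 83677 over the 20 libraries, followed by Trac with 70688 and Trbc1 with 34612. Per kilobase of exon the order was the same in all 4 groups, for instance means of 190 CPM per kb for Trbc2, 118 for Trac and 83.0 for Trbc1 in sorted IL33KO, and 206, 133 and 71.1 in sorted WT.

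Trac (ENSMUSG00000076928.5, chr14:54220521-54224206), which encodes the constant domain of the alpha chain, stood at 108, 89.0, 65.2, 167 and 122 CPM in sorted IL33KO 1 to 5, against 159, 108, 115, 80.7 and 160 CPM in sorted WT 1 to 5. In bulk tumour it stood at 14.3, 18.4, 7.28, 17.3 and 27.8 CPM in IL33KO, against 9.67, 8.82, 21.1, 9.66 and 29.4 CPM in WT. The genotypes overlapped in both compartments, and every sorted library lay above every bulk library. The log2 difference of IL33KO over WT was −0.17 (SE 0.26, edgeR adjusted p = 0.829) in sorted leukocytes and +0.10 (SE 0.40, adjusted p = 0.936) in bulk tumour, where it turned to −0.24 with bulk WT 1, 2 and 4 averaged.

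Trbc2 (ENSMUSG00000076498.2, chr6:41546730-41548352) stood at 144, 95.3, 74.4, 204 and 140 CPM in sorted IL33KO, against 175, 116, 117, 112 and 193 CPM in sorted WT. In bulk tumour it was at 17.4, 26.9, 12.4, 19.5 and 45.4 CPM in IL33KO, against 8.44, 9.45, 26.9, 8.49 and 33.6 CPM in WT. Again the genotypes overlapped, with sorted IL33KO 3 lowest among the sorted libraries and bulk WT 1, 2 and 4 lowest among the bulk ones. The log2 differences were −0.11 (SE 0.27, edgeR adjusted p = 0.902) in sorted leukocytes and +0.47 (SE 0.47, adjusted p = 0.760) in bulk tumour, the second being +0.07 with the 3 libraries averaged.

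Trbc1 (ENSMUSG00000076490.6, chr6:41538218-41539881) averaged 62.1 ± 21.7 CPM in sorted IL33KO and 53.3 ± 15.9 CPM in sorted WT, and 8.96 ± 3.91 CPM in bulk IL33KO and 6.04 ± 3.41 CPM in bulk WT (SD, n = 5 each). As a share of the Trbc1 and Trbc2 counts it was 26.6 to 36.7% in sorted IL33KO, 23.2 to 30.2% in sorted WT, 23.4 to 36.0% in bulk IL33KO and 24.2 to 30.4% in bulk WT. Sorted IL33KO 1, 2 and 5 lay above all sorted WT libraries in this share, while sorted IL33KO 3 and 4 lay within their range. Neither genotype difference in Trbc1 passed (log2 +0.23, SE 0.29, edgeR adjusted p = 0.780 sorted, and +0.56, SE 0.40, adjusted p = 0.724 bulk, or +0.22 with bulk WT 1, 2 and 4 averaged).

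**Figure D1:**
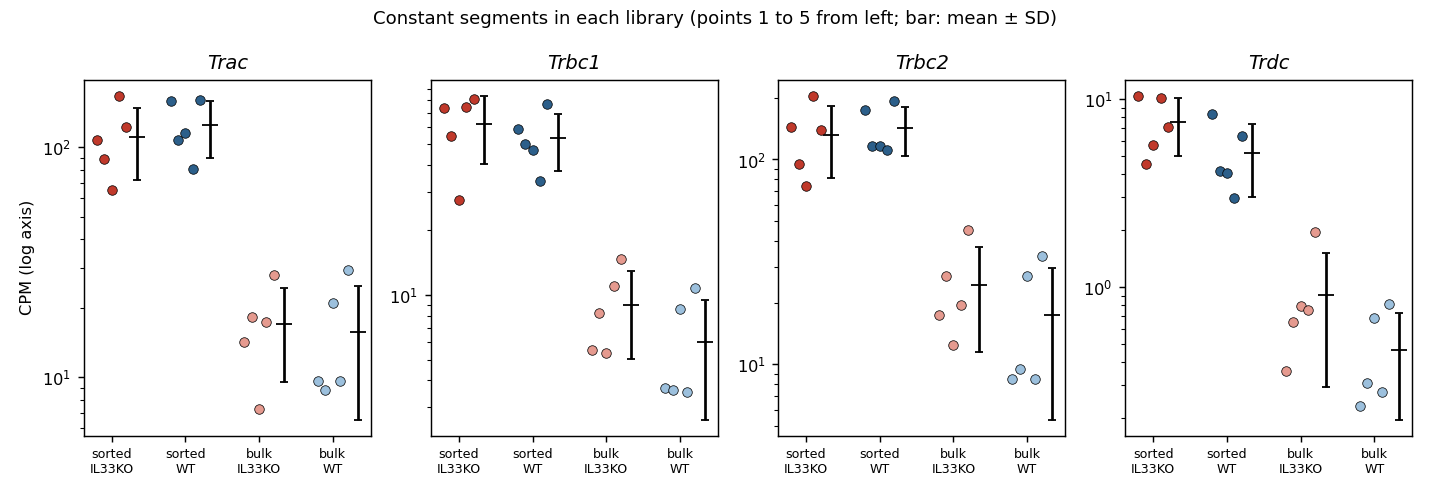
CPM of the 4 constant segments in each of the 20 libraries, on log axes, with points 1 to 5 from left to right in each group and the mean ± SD beside them. Sorted libraries lie above all bulk libraries for each segment, IL33KO and WT overlap, and bulk WT 1, 2 and 4 lie together at the bottom of their group for Trac, Trbc1, Trbc2 and Trdc.

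Trdc (ENSMUSG00000104876.1, chr14:54142851-54148868), the constant segment of the delta chain, stood at 10.4, 4.53, 5.72, 10.1 and 7.07 CPM in sorted IL33KO, against 8.35, 4.12, 4.02, 2.97 and 6.39 CPM in sorted WT. In bulk tumour it stood at 0.359, 0.655, 0.797, 0.751 and 1.95 CPM in IL33KO, against 0.233, 0.310, 0.684, 0.275 and 0.814 CPM in WT. The IL33KO values tended to the upper part of a shared range in both compartments, and the groups overlapped. IL33KO over WT came to +0.55 on the log2 scale (SE 0.32, edgeR adjusted p = 0.496) in sorted leukocytes and +0.95 (SE 0.50, adjusted p = 0.724) in bulk tumour, or +0.61 with bulk WT 1, 2 and 4 averaged. Exact two-sided permutation tests of log2 CPM gave p = 0.143 and p = 0.103 for Trdc. Over the 8 tests of 4 constant segments in 2 compartments the exact p lay between 0.103 and 0.722. With 5 libraries on each side an exact p cannot go below 0.00794. The bulk tests count the alike libraries bulk WT 1, 2 and 4 as 3. With them averaged, the exact p in bulk tumour was 0.429 for Trdc (log2 +0.53, against +0.93 before). It was 0.679 for Trbc1 (log2 +0.26, against +0.64) and 0.821 for Trbc2 (log2 +0.14, against +0.61).

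Set against Trac, the delta constant segment separated the genotypes more than its level did. Trdc made up 8.78% of Trac plus Trdc counts in sorted IL33KO 1 (95% exact binomial interval 8.08 to 9.52%, counting error alone), 4.84% in IL33KO 2, 8.06% in IL33KO 3, 5.70% in IL33KO 4 and 5.47% in IL33KO 5. In sorted WT 1 to 5 it made up 4.97% (interval 4.51 to 5.48%), 3.68%, 3.38%, 3.56% and 3.83%. Sorted IL33KO 2 lay below sorted WT 1, and all other sorted IL33KO libraries lay above all sorted WT libraries. In bulk tumour the share was 2.46, 3.45, 9.86, 4.15 and 6.55% in IL33KO, against 2.36, 3.40, 3.14, 2.77 and 2.70% in WT, with bulk IL33KO 1 inside the WT range. Trdc is 3865 bases long and Trac 935, so per kilobase of exon Trdc was at 1.23 to 2.33% of Trac in sorted IL33KO and 0.847 to 1.27% in sorted WT. The group means of the share were 6.57 ± 1.74% in sorted IL33KO and 3.89 ± 0.631% in sorted WT, and 5.29 ± 2.97% in bulk IL33KO and 2.87 ± 0.405% in bulk WT (SD, n = 5 each). The share was described and not tested.

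Other genes of gamma delta T cells did not pass. Il23r, the interleukin-23 receptor, had a log2 difference of +0.80 (SE 0.47, edgeR adjusted p = 0.509) in sorted leukocytes, and Blk, a kinase of B cells and gamma delta T cells, +0.64 (SE 0.45, adjusted p = 0.589). Of 7 list genes, 6 lay above 0 in sorted leukocytes, as did 53.7% of all genes (median log2 +0.36, against +0.02 over all genes). In bulk tumour 3 of 5 did, against 51.2% of all genes. For sorted over bulk only 5 of the 7 lay above 0 in each host, with lowest values of −1.73 in IL33KO and −2.26 in WT. The gamma constant segments are listed under names beginning with Tcrg-, outside the symbols used here. Tcrg-C2 was at 7.14 to 39.6 CPM in sorted IL33KO and 16.7 to 33.7 CPM in sorted WT (log2 −0.01, SE 0.39, adjusted p = 0.997), and Tcrg-C1 at 3.55 to 6.62 and 3.97 to 9.98 CPM (log2 −0.18, SE 0.30, adjusted p = 0.848). Blk stood at 39.6, 25.9, 26.0, 7.61 and 8.49 CPM in sorted IL33KO 1 to 5. There the 6 B cell genes summed to 957, 849, 548, 125 and 147 CPM. In sorted WT 1 to 5 Blk stood at 19.7, 13.0, 18.4, 10.1 and 8.29 CPM, and the B cell genes summed to 445, 366, 615, 261 and 188 CPM. Blk is also used by cells other than T cells, and their part in its value was not tested.

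Trgv2, a gamma variable segment on chromosome 13, had 2948 counts and was the only gamma segment in the set. It stood at 4.22, 4.89, 1.62, 7.41 and 6.72 CPM in sorted IL33KO, against 5.32, 3.22, 4.55, 2.39 and 4.95 CPM in sorted WT, and at 0.740, 0.794, 0.234, 1.27 and 0.604 CPM in bulk IL33KO, against 1.05, 1.20, 1.01, 0.934 and 0.852 CPM in bulk WT. Bulk WT was narrow, and bulk WT 1, 2 and 4 were not low in it. Neither difference passed (log2 +0.29 sorted, adjusted p = 0.780, and −0.48 bulk, adjusted p = 0.725, edgeR). Trdv4, a delta variable segment, was at 11 to 60 counts in sorted IL33KO and 7 to 34 in sorted WT, and at 8 to 12 counts in both bulk groups (log2 +0.91 sorted, SE 0.54, adjusted p = 0.509; not tested in bulk).

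Summed over the 55 segments, the receptor level was 409, 295, 218, 556 and 424 CPM in sorted IL33KO 1 to 5, against 478, 321, 342, 263 and 500 CPM in sorted WT 1 to 5. In bulk tumour the sums were 44.9, 63.9, 29.9, 60.3 and 102 CPM in IL33KO, against 27.4, 29.0, 67.1, 27.4 and 86.0 CPM in WT. The genotypes overlapped in both compartments, at means of 380 ± 129 CPM in sorted IL33KO and 381 ± 103 CPM in sorted WT, and 60.1 ± 26.9 CPM in bulk IL33KO and 47.4 ± 27.5 CPM in bulk WT (SD, n = 5 each). On the log2 scale the ratio of means in bulk tumour was +0.34, and −0.01 with bulk WT 1, 2 and 4 averaged. The lowest sorted sum was that of IL33KO 3, the library with the most acinar RNA. It was also the highest in the 4 neutrophil genes, which summed to 15393 CPM there, against 1682 to 3661 CPM in the other sorted IL33KO libraries and 2183 to 5887 CPM in sorted WT. The part of either in its segment sum was not tested.

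Receptor segments and CD3 genes moved together from library to library. The ratio of segment counts to Cd3d, Cd3e and Cd3g counts was 1.20 to 1.46 in sorted IL33KO, 1.14 to 1.36 in sorted WT, 1.28 to 1.46 in bulk IL33KO and 1.17 to 1.27 in bulk WT, whereas the segment sums ranged from 27.4 to 556 CPM. Bulk IL33KO lay above bulk WT in this ratio in all libraries, at 1.38 ± 0.0802 against 1.23 ± 0.0487 (SD, n = 5 each), a description with no test. The margin was narrow, with bulk IL33KO 4 at 1.281 and bulk WT 5 at 1.275. By locus, alpha segments summed to 75.1 to 187 CPM in sorted IL33KO and 87.4 to 175 CPM in sorted WT, and beta segments to 135 to 350 CPM and 170 to 316 CPM.

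Relative to their constant segments, V segments were somewhat more frequent in sorted IL33KO. There were 12.9, 10.4, 15.2, 11.9 and 11.7 Trav counts per 100 Trac counts in sorted IL33KO, against 9.65, 7.49, 12.1, 8.39 and 7.49 in sorted WT. Trbv counts per 100 Trbc counts were 24.8, 25.1, 32.5, 25.7 and 23.6 in sorted IL33KO, against 23.5, 18.6, 25.2, 17.2 and 17.3 in sorted WT. Both ranges overlapped. In bulk tumour the order was not the same, with 14.9 to 27.4 Trbv per 100 Trbc counts in IL33KO and 17.4 to 31.5 in WT. Most functional V rows at 0 had close copies, so these ratios hold a part of the V transcripts.

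Among beta V segments, usage differed from library to library. Per kilobase of exon, Trbv13-1 was highest in sorted IL33KO with a mean of 23.9 CPM per kb, followed by Trbv14 with 16.6 and Trbv29 with 9.82. The place of Trbv14 rested on library 4, which held 72.4% of its sum. In sorted WT the order was Trbv16 with 11.9, Trbv3 with 11.5, Trbv13-2 with 10.7 and Trbv4 with 9.44 CPM per kb, and these 4 were not tested against each other. In bulk IL33KO Trbv14 and Trbv13-1 led with 2.39 and 2.38 CPM per kb, and in bulk WT Trbv13-2 led with 2.48. Library 2 held 50.9% of the Trbv14 sum in bulk IL33KO, and library 4 held 66.4% of the Trbv13-1 sum. Among alpha V segments Trav10 led in sorted IL33KO with 3.79 CPM per kb, and Trav4-4-dv10 in sorted WT with 3.21.

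The leading Trbv segment took a larger part of the Trbv counts in some IL33KO libraries than in any WT library. In sorted IL33KO it was Trbv15 at 11.7% in library 1, Trbv13-1 at 39.4% in library 2 (95% exact binomial interval 37.1 to 41.7%), Trbv13-1 at 13.4% in library 3, Trbv14 at 30.8% in library 4 (interval 29.3 to 32.4%) and Trbv13-1 at 28.4% in library 5 (interval 26.8 to 30.0%). In sorted WT it was Trbv16 at 15.6%, Trbv3 at 18.9%, Trbv4 at 15.7%, Trbv16 at 16.0% and Trbv3 at 17.5% in libraries 1 to 5. Sorted IL33KO 2, 4 and 5 lay above, and sorted IL33KO 1 and 3 below, all sorted WT libraries.

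The same spread appeared in the effective number of Trbv segments, the exponential of the Shannon entropy of their shares, which would be 19 if all were used equally. It was 16.2, 9.66, 16.4, 11.2 and 12.5 in sorted IL33KO and 14.5, 14.7, 14.8, 15.0 and 15.0 in sorted WT. The means were 13.2 ± 3.00 in sorted IL33KO and 14.8 ± 0.207 in sorted WT (SD, n = 5 each). The 5 sorted WT values lay close together inside the IL33KO range. In bulk tumour the effective number was 12.6, 10.5, 13.6, 10.7 and 14.4 in IL33KO, against 12.2, 12.2, 14.6, 12.2 and 13.5 in WT. It depends on depth. The Trbv counts behind it were 181 to 755 in bulk IL33KO and 252 to 598 in bulk WT. In sorted IL33KO they were 1448 to 3525 and in sorted WT 1160 to 2592, so sorted and bulk values are not compared.

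**Figure D2:**
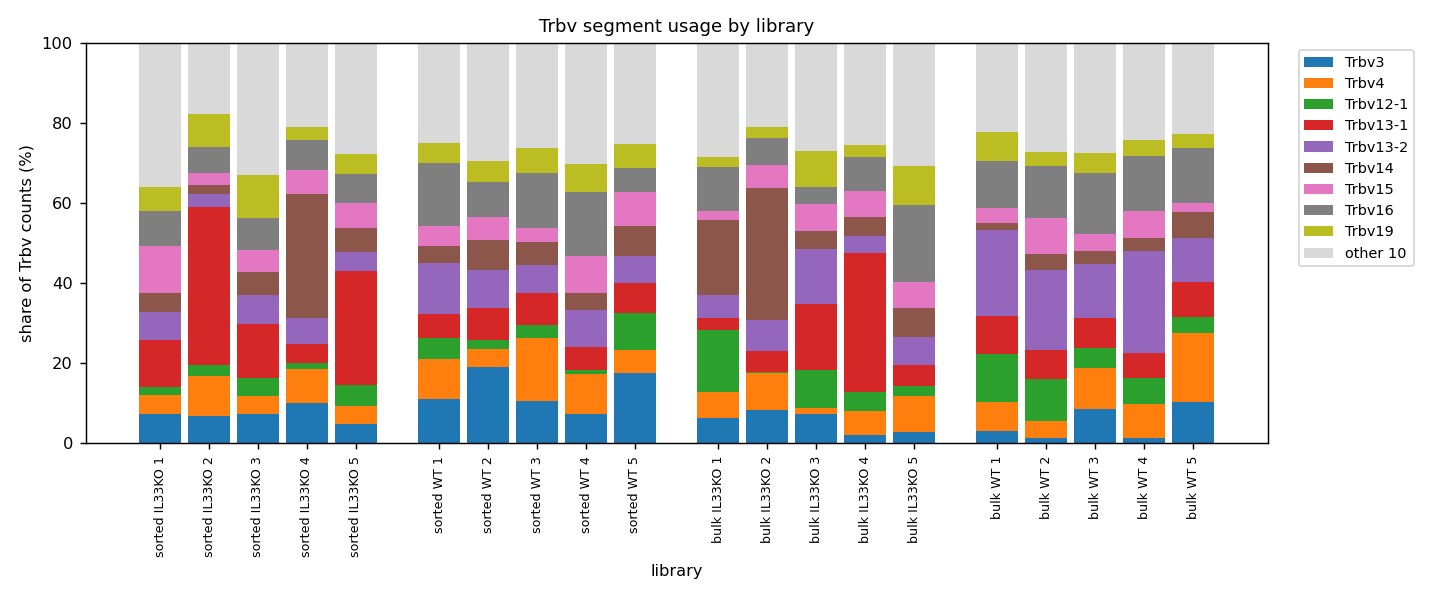
Share of Trbv counts, in percent, taken by the 9 Trbv segments with the largest single-library shares and by the other 10 together, as stacked bars for each library. Trbv13-1 takes 39.4% in sorted IL33KO 2, 28.4% in sorted IL33KO 5 and 34.7% in bulk IL33KO 4, Trbv14 takes 30.8% in sorted IL33KO 4 and 33.1% in bulk IL33KO 2, and Trbv13-2 leads in bulk WT 1, 2 and 4.

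Single libraries held most of some segments. An equal part for each of 5 libraries would be 20%. Trav13-2 stood at 0.352, 0.0851, 0.412, 4.34 and 0.166 CPM in sorted IL33KO 1 to 5, so library 4 held 81.1% of the sum. Trbv14 stood at 2.60, 0.851, 1.90, 22.1 and 3.08 CPM, with 72.4% in library 4. At any level, 5 V segments had 50% or more of the group's sum in 1 library in sorted IL33KO, and 5 in sorted WT. Among the 5 of sorted WT, Trav10d had 71.0% in library 1 and Trav13-2 had 57.7% in library 3, at group means of 0.0836 and 0.414 CPM.

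Trbv13-1 was the beta V segment with the most counts, 3468 in all. It stood at 6.21, 14.8, 4.44, 3.53 and 14.7 CPM in sorted IL33KO, against 3.35, 2.45, 3.28, 1.40 and 3.56 CPM in sorted WT. Libraries 2 and 5 of IL33KO were high, and IL33KO 4 lay just under the highest WT library. Trav10 followed the same libraries, at 0.469, 3.42, 0.458, 0.528 and 2.81 CPM in sorted IL33KO and 0.257 to 0.750 CPM in sorted WT. In bulk IL33KO 4 they were again high together, Trbv13-1 at 2.89 CPM against 0.152 to 0.481 CPM in the other bulk IL33KO libraries, and Trav10 at 0.530 CPM against 0 to 0.110. Trav10 shares 60.2% of its 50-base windows with other genes, so its counts are a part of its transcripts.

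V segment usage was then compared between all 190 pairs of libraries. For each of the 51 V segments the log2 share of V counts (1 count added) was taken relative to its mean over libraries, and likeness was measured as Pearson r over segments, which are not independent of each other. Of the 190 pairs, 7 had r above 0.5, and the other 183 lay between −0.45 and 0.47 with a median of −0.09. These r values are a description over segments counted at unequal depth. Bulk IL33KO 3, which had the fewest V counts, 257, reached at most r = 0.26 with any other library.

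Of the 7 closest pairs, 3 were those among bulk WT 1, 2 and 4 (r = 0.65 to 0.71). The other 4 joined a sorted and a bulk library of the same genotype. Sorted IL33KO 4 and bulk IL33KO 2 had r = 0.79, with 90.9% of V counts shared between their profiles and a chi-square of 1.16 per degree of freedom. Sorted IL33KO 5 and bulk IL33KO 4 had r = 0.69 (overlap 86.2%, chi-square 2.27), sorted WT 3 and bulk WT 5 r = 0.64 (87.8%, 1.98), and sorted WT 1 and bulk WT 3 r = 0.52 (89.1%, 1.40). For the other 183 pairs the chi-square was 3.24 to 41.5 per degree of freedom. Where profiles differ this value rises with the number of counts, and libraries held 257 to 4926 V counts. Among the 50 pairs of a sorted and a bulk library of the same genotype 4 had r above 0.5, and among the 50 such pairs across genotypes 0 did, with a highest r of 0.34.

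The replicate numbers of these 4 pairs differ. The 10 pairs of sorted and bulk libraries that share a genotype and a number had r between −0.32 and 0.07. What the 4 pairs share beyond V usage is not stated in the labels. Whether they share tumours was not tested, and the comparisons between compartments treat all libraries as independent.

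**Figure D3:**
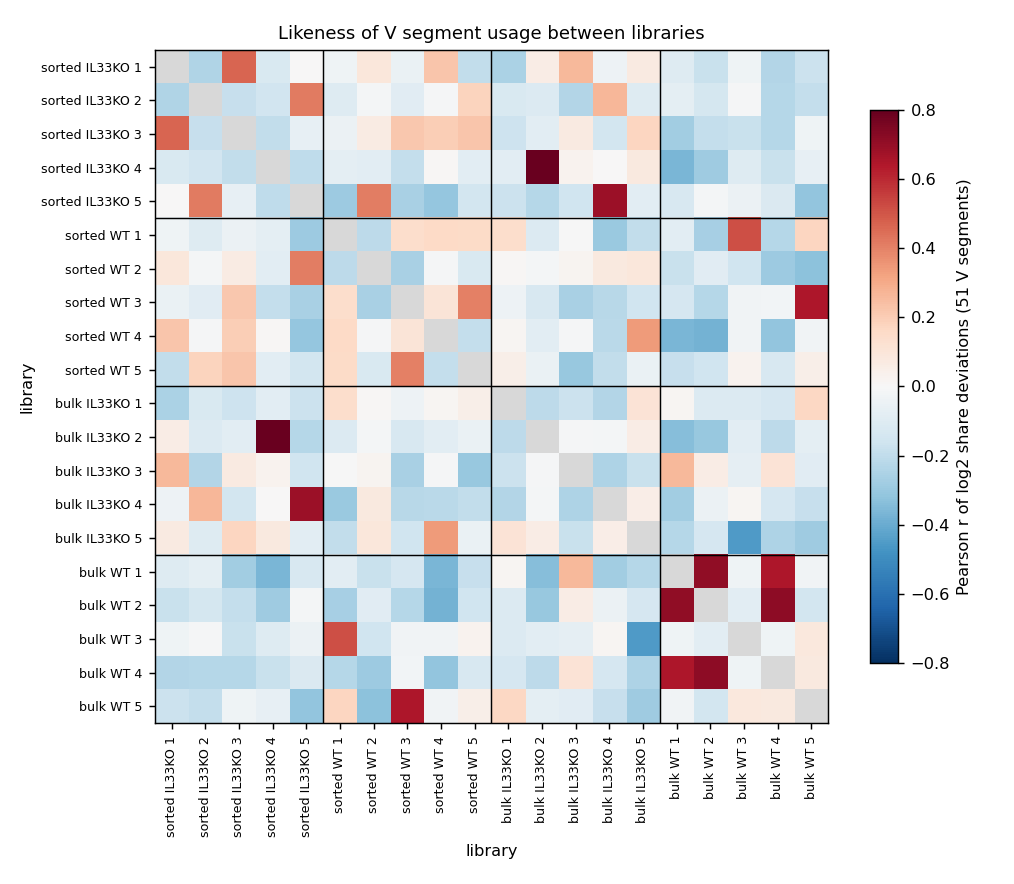
Pearson r of V segment usage (log2 share relative to the segment's mean, 51 segments) between every 2 of the 20 libraries, red for alike and blue for unlike, grey on the diagonal. The dark red cells off the diagonal are the 3 pairs among bulk WT 1, 2 and 4 and the 4 sorted and bulk pairs, with r of 0.52 to 0.79.

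For 3 of the 4 sorted and bulk pairs and for the bulk WT libraries, some segments were high in both members. Trbv14 and Trav13-2 had 1087 and 214 counts in sorted IL33KO 4, and 161 and 26 counts in bulk IL33KO 2, the highest of the bulk libraries for both. Trbv13-1 and Trav10 had 891 and 170 counts in sorted IL33KO 5, and 262 and 48 counts in bulk IL33KO 4. Trbv4 had 341 counts in sorted WT 3 and 103 in bulk WT 5, and Trav13-2 had 63 and 17 there. Trbv13-2 took 21.6, 19.9 and 25.4% of Trbv counts in bulk WT 1, 2 and 4, against 3.45 to 13.8% in the other 17 libraries.

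The genotype comparison in sorted leukocytes asked whether receptor segments changed with loss of host IL-33. With edgeR's quasi-likelihood test and Benjamini-Hochberg adjustment over 16731 genes, 0 of the 47 segments that passed the filter on low counts were called, where 0.012% of all genes were. At an unadjusted p under 0.05 there were 4 of 47 segments, against 12.9% of all genes. DESeq2 called 1 segment higher (0.536% of all genes), and limma voom with quality weights for each sample, termed weighted voom here, called 0 (1.12% of all genes higher and 1.27% lower). Segments above 0 numbered 26 of 47 (53.7% of all genes were above 0), and their median log2 difference was +0.20, against +0.02 over all genes. In 0 of the 47 did IL33KO and WT libraries not overlap, against 3.69% of all genes.

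The segment with the smallest p was Trbv13-1, which averaged 8.75 ± 5.59 CPM in sorted IL33KO and 2.81 ± 0.893 CPM in sorted WT (SD, n = 5 each). That was +1.65 on the log2 scale (SE 0.44, edgeR adjusted p = 0.185), and DESeq2 called it (+1.64, adjusted p = 0.00760). The adjusted p ranged from 0.00760 to 0.439 over 18 alternatives. Trav10 was next (log2 +1.86, SE 0.66, edgeR adjusted p = 0.291) and then Trbv29 (log2 +1.43, SE 0.53, adjusted p = 0.302), which stood at 4.84, 1.17, 1.24, 4.63 and 5.46 CPM in sorted IL33KO and 0.711 to 2.56 CPM in sorted WT. Both overlapped the WT range.

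On the lower side the smallest p belonged to Trav7d-3, at 0.137, 0.276, 0.114, 0.223 and 0.0497 CPM in sorted IL33KO, against 0.869, 0, 0.607, 0.453 and 0.729 CPM in sorted WT (log2 −1.73, SE 0.75, edgeR adjusted p = 0.368). Of the WT libraries, 4 lay above all IL33KO libraries and WT 2 had 0 counts. With weighted voom its sign turned (+0.23). Trav14n-3 (log2 −0.66, SE 0.50, adjusted p = 0.617) and Trbv3 (log2 −0.49, SE 0.41, adjusted p = 0.663) followed. Trbv14 had a log2 difference of +1.41 (SE 0.79, adjusted p = 0.488), which rested on library 4: without it the value was −0.12.

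By kind, 12 of 22 tested Trav segments and 10 of 19 Trbv segments lay above 0 in sorted leukocytes, with ranges of −1.73 to +1.86 and −0.49 to +1.65. The T cell list around them was flat, with 7 of 14 genes above 0, 0 called and a median log2 of −0.01. Cd3e, which encodes the epsilon chain of CD3, was at 75.5 ± 35.2 CPM in sorted IL33KO and 78.2 ± 24.8 CPM in sorted WT (log2 −0.04, SE 0.34, edgeR adjusted p = 0.974). Cd4 (log2 0.00, adjusted p = 0.999), Cd8a (−0.20, adjusted p = 0.866) and Cd8b1 (−0.18, adjusted p = 0.827) did not pass either. Of 34 genes of the receptor complex and its proximal signalling 19 lay above 0 and 0 were called. The smallest p among them were those of Rasgrp1, an activator of Ras (log2 +0.25, adjusted p = 0.361), and Vav1, a Rac exchange factor (log2 −0.21, adjusted p = 0.364). In the list of T cell transcription factors Lef1 (log2 +1.04, SE 0.49, adjusted p = 0.412) and Tcf7 (log2 +0.66, SE 0.35, adjusted p = 0.466), a pair found in naive and stem-like T cells, did not pass. Both were highest in sorted IL33KO 1, Lef1 at 30.6 CPM there, against 5.25 to 12.8 CPM in the other sorted IL33KO libraries and 3.21 to 8.62 CPM in sorted WT, and Tcf7 at 103 CPM, against 30.3 to 58.6 CPM and 21.8 to 47.1 CPM.

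In bulk tumour, 0 of the 21 segments that passed the filter were called by edgeR, and 0% of all 17258 genes were. At an unadjusted p under 0.05 there were 3 of 21 segments, against 6.36% of all genes, and 11 of 21 lay above 0 (51.2% of all genes did). The median log2 difference was +0.10 over the segments and +0.01 over all genes. DESeq2 called 1 segment lower (0.117% of all genes). Weighted voom called 7 higher (11.1% of all genes) and 3 lower (8.41%). Only 2 of 30 Trav segments were high enough in bulk tumour to be tested.

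Trbv13-2 had the smallest p and was the 1 segment whose genotypes did not overlap in bulk tumour, being lower in IL33KO, as were 0.301% of all genes. It stood at 0.305, 0.516, 0.391, 0.342 and 0.618 CPM (25 to 45 counts) in bulk IL33KO, against 0.713, 0.818, 0.954, 0.879 and 0.852 CPM (55 to 74 counts) in bulk WT. All bulk WT libraries were higher, WT 3 and 5 as well as WT 1, 2 and 4. IL33KO over WT came to −0.97 on the log2 scale (SE 0.25, edgeR adjusted p = 0.724), and it was called by DESeq2 (−0.99, adjusted p = 0.0278) and by weighted limma voom (−0.95, adjusted p = 0.0145). Both calls count the alike libraries WT 1, 2 and 4 as 3, and neither was checked with them averaged. Over 18 alternatives the value lay between −1.13 and −0.86 and the adjusted p between 0.0145 and 1.00. In sorted leukocytes the same segment averaged 2.93 ± 1.31 CPM in IL33KO and 3.65 ± 1.90 CPM in WT (SD, n = 5 each; log2 −0.32, SE 0.38, adjusted p = 0.775).

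Trbv12-2 was lower as well without passing (log2 −1.56, SE 0.49, edgeR adjusted p = 0.724), at 2 to 11 counts in bulk IL33KO and 9 to 27 counts in bulk WT, where WT 2 held the highest value. Trav3-3 had a log2 difference of −0.74 (SE 0.40, adjusted p = 0.724). On the higher side, Trbv14 stood at 0.979, 2.24, 0.125, 0.397 and 0.659 CPM in bulk IL33KO, against 0.0518, 0.169, 0.219, 0.110 and 0.504 CPM in bulk WT (log2 +2.03, SE 0.74, adjusted p = 0.724). IL33KO 3 and 4 lay inside the WT range and IL33KO 2 was the highest. Without IL33KO 2 the value was +1.34, and without WT 5 it was +2.64. Trbv29 (log2 +1.21, SE 0.70, adjusted p = 0.724) and Trbv13-1 (log2 +1.11, SE 0.71, adjusted p = 0.724) did not pass, and without IL33KO 4 the value of Trbv13-1 was −0.13.

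**Figure D4:**
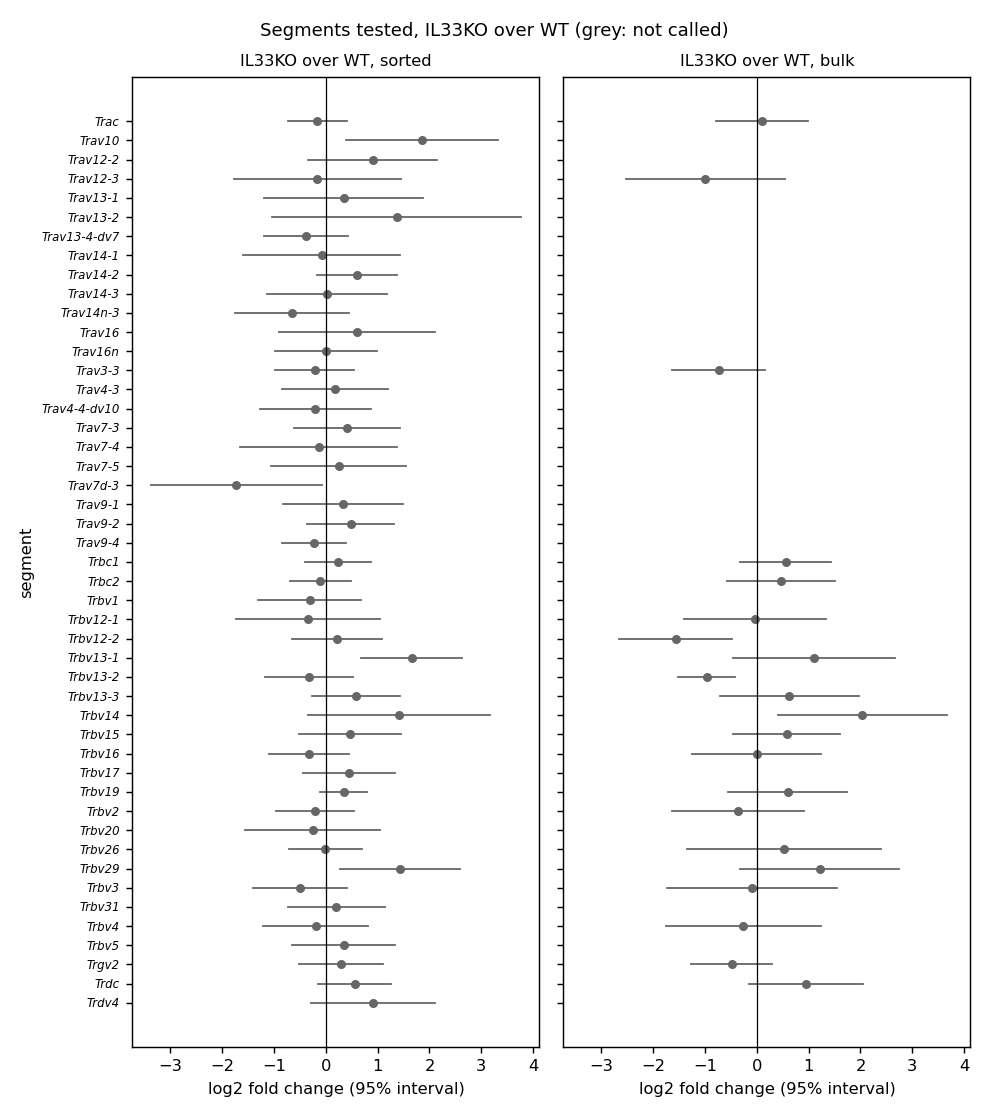
Log2 fold change of IL33KO over WT with its 95% interval for each segment that passed the filter on low counts, in sorted leukocytes (left, 47 segments) and in bulk tumour (right, 21 segments). None was called; the values of Trbv13-1 and Trbv13-2 stand farthest from 0 relative to their error.

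The test of whether the genotype difference itself differed between compartments called 0 of 49 segments with edgeR, as of all 18145 genes (0%). At an unadjusted p under 0.05 there were 3 of 49 segments, against 11.2% of all genes, DESeq2 called 0 (0.0106% of all genes higher and 0.00355% lower), and weighted voom called 1 higher (8.48% of all genes) and 4 lower (10.3%). Trbv12-2 had the smallest p (log2 +1.75, SE 0.64, edgeR adjusted p = 0.445), followed on the higher side by Trav14-2 (+1.22, SE 0.66, adjusted p = 0.467) and Trav4-3 (+1.08, SE 0.72, adjusted p = 0.529). On the lower side were Trbv5 (−1.80, SE 0.81, adjusted p = 0.445), Trav7-5 (−2.56, SE 1.17, adjusted p = 0.445) and Trav13-1 (−1.97, SE 1.16, adjusted p = 0.488). Without bulk IL33KO 5 the value of Trav7-5 was −1.50. Without sorted IL33KO 4 that of Trav13-1 was −3.17, and without bulk WT 5 it was −2.74. Positive values mean a larger IL33KO over WT ratio in sorted leukocytes than in bulk tumour.

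Receptor segments were higher in CD45+ sorted than in bulk libraries of both hosts. Of 49 segments that passed the filter, all 49 were called higher in sorted than in bulk IL33KO libraries, where edgeR called 31.3% of all genes higher, and 47 of 49 in WT, where it called 33.7% higher. The filter lets a segment in through the sorted libraries alone, so these counts were also taken without it: 55 of 55 segments were then called higher in IL33KO (21.2% of all genes) and 51 of 55 in WT (23.2%). The limit of 100 counts that chose the 55 was itself reached mostly through sorted libraries. Nothing is therefore read from how many of them were called, from their median difference or from how many did not overlap. The median log2 difference over the 49 was +2.88 in IL33KO (+0.02 over all genes) and +3.03 in WT (−0.003 over all genes). In 38 segments every sorted library lay above every bulk library in IL33KO (24.6% of all genes), and in 39 in WT (26.2%). The comparison in WT counts the alike libraries bulk WT 1, 2 and 4 as 3. With them averaged, 48 of 54 segments were called higher in WT (30.1% of all genes) and 54 of 54 in IL33KO (31.4%).

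Among constant segments the log2 difference of sorted over bulk was +2.70 (SE 0.39) for Trac, +2.79 (SE 0.39) for Trbc1, +2.43 (SE 0.43) for Trbc2 and +3.07 (SE 0.46) for Trdc in IL33KO. In WT it was +2.99 (SE 0.39), +3.14 (SE 0.40), +3.03 (SE 0.44) and +3.47 (SE 0.47) in the same order. The segments with the smallest p in IL33KO were Trbv13-2 (6.73-fold), Trbv19 (8.61-fold) and Trbv12-2 (12.7-fold), and in WT Trbc1 (8.81-fold), Trbv19 (10.3-fold) and Trac (7.92-fold), each with an edgeR adjusted p under 0.05. Trbv19 stood at 2.41 to 3.52 CPM in sorted IL33KO and 1.67 to 2.81 CPM in sorted WT, against 0.131 to 0.879 CPM in bulk IL33KO and 0.137 to 0.348 CPM in bulk WT. Without bulk IL33KO 5 its log2 difference in IL33KO was +3.82, against +3.11 with it. Trav7-3 and Trav13-2 were the segments not called in WT. Trav13-2 was at 3 to 63 counts in sorted WT and 0 to 17 in bulk WT (log2 +2.68, SE 1.25, adjusted p = 0.0648).

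Other T cell genes were higher after sorting by about as much. All 14 T cell genes were called higher in both hosts (median log2 +2.80 in IL33KO and +3.06 in WT), as were all 3 of Cd4, Cd8a and Cd8b1 and 32 of 34 genes of the receptor complex and its signalling (of the other two, 1 was called lower in WT). Cd3g, the gamma chain of CD3, had a log2 difference of +2.77 (SE 0.38) in IL33KO and +3.05 (SE 0.39) in WT, and Cd247, the zeta chain, +3.00 (SE 0.40) and +3.10 (SE 0.41). Relative to Cd3d, Cd3e and Cd3g counts, the segment sum differed between sorted and bulk by log2 −0.046 in IL33KO and +0.0078 in WT, against +2.66 and +3.01 in CPM. Epithelial genes fell in 5 of 5 members in both hosts (median log2 −1.77 in IL33KO and −2.04 in WT). Genes of recombination were low: Rag1, which with Rag2 cuts the segments before joining, was at 0.0812 to 1.65 CPM in sorted IL33KO and 0 to 0.987 CPM in sorted WT, and Rag2 at 0.0203 to 0.319 and 0 to 0.129 CPM. Rag1 is used in precursors of B cells as well as of T cells.

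**Figure D5:**
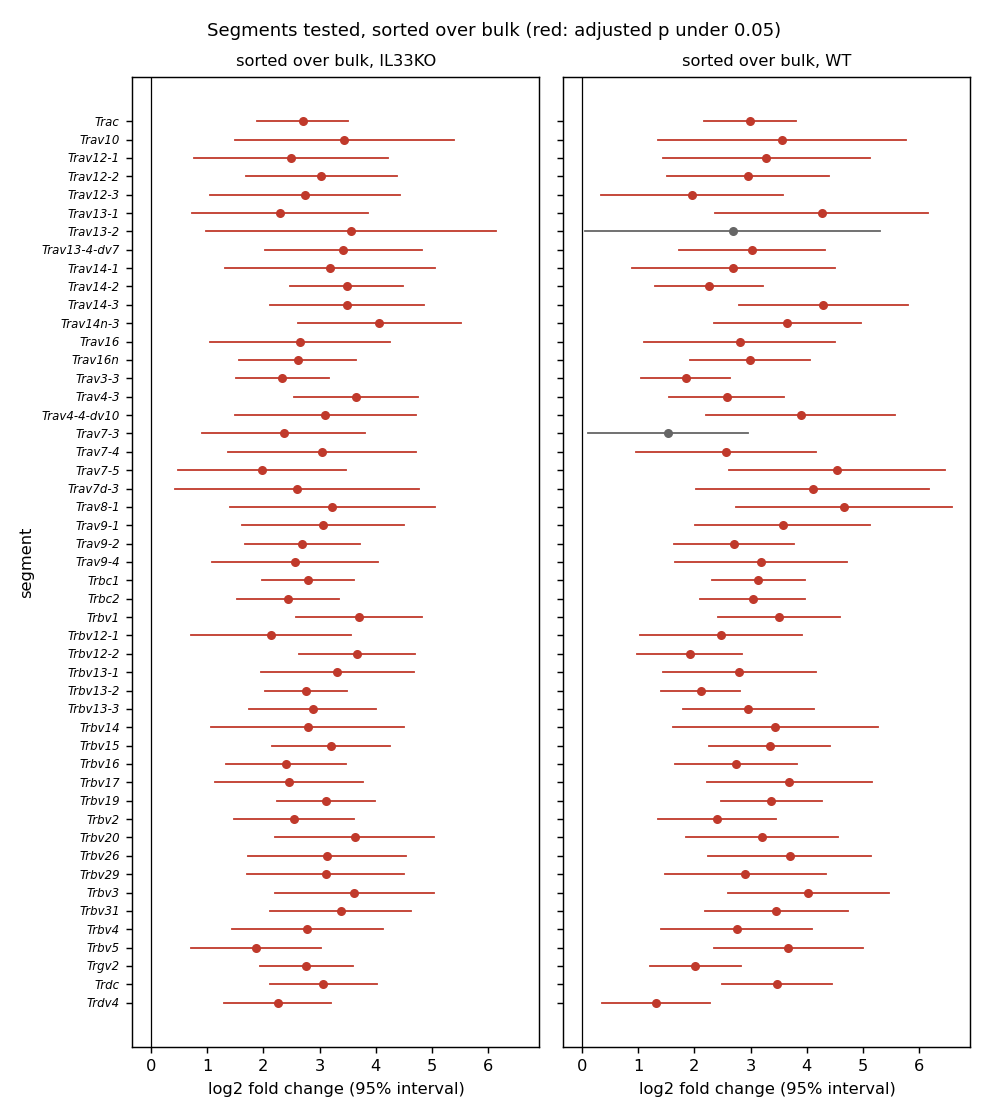
Log2 fold change of sorted over bulk libraries with its 95% interval for the 49 segments that passed the filter on low counts, in IL33KO (left) and WT (right). All points lie above 0; those in red were called, 49 in IL33KO and 47 in WT, and the alpha V segments with few counts have the widest intervals.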

How the data were processed

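Poly(A) RNA libraries were made with a stranded TruSeq mRNA kit, per the labels' protocols. The authors deposited raw read counts per gene, and the submitters' processing notes name mm10, Picard, HTSeq and DESeq. For the aligner and the strand setting of the counting: not given in the sources used here. A second deposited table holds a scaled signal, the counts divided by a DESeq size factor per library, per the file headers and values, and served as an alternative only. All count columns were mapped to labelled libraries. The 5 summary rows, 26.1 to 40.5% of reads, were left out; 12.5 to 22.5% of reads were not unique.

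Counts were tested with edgeR 4.0.16 (R 4.3.3; quasi-likelihood, TMM, filterByExpr, robust) with Benjamini-Hochberg adjustment over all genes tested and a threshold of 0.05. CPM used TMM factors. Libraries held 51273064 to 80957402 counts. Binomial intervals (95%, exact) cover counting error alone. Single values used exact permutation tests (scipy 1.17.1). Alternatives were RLE factors, DESeq2 1.42.0, limma 3.58.1 voom with sample weights, no filter, limma trend on log2 of the scaled signal plus 1, a replicate block, a Cd3 covariate, and leaving out libraries. Averaging bulk WT 1, 2 and 4 was added after seeing the data. The edgeR fits of both genotype comparisons were run on simulated counts. Changes were planted there only in genes above a minimum level, so recovery at the low counts of many V segments was not tested. The rule for named segments took the constant and invariant-receptor segments, the 3 with most counts of each kind, the 3 smallest p per direction in each comparison, the 5 most held by a single library and those next to the count limit, with at most 4 genes from each other list and the CD3, CD4 and CD8 genes. Other segments named for their shares were chosen after their values were seen. The segments and gene lists were chosen with earlier results of these data known. Coordinates and sequences are from GENCODE M21 on GRCm38, matched by gene identifier without its version for all 258 rows. The levels of some marker lists of other cell types are not reported here.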

Additional observations from a re-analysis of the deposited data

Results flagged for a closer look

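In 132 groups of 5 libraries, 16 had a highest or lowest value far from the rest by Dixon's ratio. Its limit is one that chance passes in about 1 in 20 groups of normally spread values. Some segments were named because 1 library held most of a group's sum, so nothing is read from the number flagged. In sorted IL33KO these were Trbv14 at 22.1 CPM, Trav13-2 at 4.34 CPM and Trav13-1 at 1.62 CPM, all highest in library 4. In sorted WT they were Trbv13-2 at 7.01 CPM, Trav3-3 at 1.65 CPM and Trav13-1 at 0.742 CPM in library 1, Trav4-3 at 0.622 CPM in library 2, and the Trdc share of Trac plus Trdc counts at 4.97% in library 1. In bulk IL33KO they were Trav10 at 0.530 CPM and Trbv13-1 at 2.89 CPM in library 4, Trav13-2 at 0.362 CPM in library 2, and Trdc at 1.95 CPM, Trbv19 at 0.879 CPM and Trav7-5 at 0.275 CPM in library 5. In bulk WT they were Trbv12-2 at 0.381 CPM in library 2 and Trav7d-3 at 0.103 CPM in library 5.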

How the results depend on the processing

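DESeq2 called 1 segment between genotypes in sorted leukocytes and 1 in bulk tumour, and voom with sample weights called 10 in bulk tumour and 5 for the interaction, where edgeR called 0 in each; the cause was not tested. Relative to Cd3d, Cd3e and Cd3g, the segment sum of sorted over bulk was −0.046 in IL33KO (2.66 in CPM) and 0.0078 in WT (3.01 in CPM), on the log2 scale. With 1 library left out in turn, the number of segments called stayed at 0 to 0 for both genotype comparisons and the interaction, and was 46 to 52 for sorted over bulk in IL33KO and 46 to 51 in WT. Of all genes, these fits called 29.4 to 32.4% higher in IL33KO and 31.7 to 35.3% in WT, and at most 0.104% in 1 direction in the other 3 comparisons. Of 958 alternative values of 41 single-gene results, 932 kept their direction and side of the threshold, 14 moved past it and 12 changed sign. The sign changed for Trav7d-3 in sorted leukocytes with voom (0.23), Trav4-3 in the interaction with voom (−0.16), Trac in bulk tumour with the Cd3 covariate (−0.10) and with bulk WT 1, 2 and 4 averaged (−0.24, and −0.21 for the exact test), and Trac in the interaction with them averaged (0.052). Without 1 library it also changed within −0.32 to 0.040 for Trbc2 in sorted leukocytes, −0.15 to 0.45 for Trac in bulk tumour and −0.71 to 0.088 for Trdc in the interaction. Same-numbered libraries did not all deviate together: their correlations were −0.19 to 0.34 between sorted genotypes, −0.12 to 0.59 between bulk genotypes, −0.26 to 0.30 between compartments of IL33KO and −0.15 to 0.17 between those of WT, and each library correlated best with its own number in 1 to 3 of 5 cases. With the replicate block 0, 0, 48, 46 and 0 segments were called in sorted IL33KO over WT, bulk IL33KO over WT, sorted over bulk in IL33KO, sorted over bulk in WT and the interaction. Of all genes, 31.5% were called higher under the block in the third and 33.9% in the fourth, and at most 0.00598% in 1 direction in the others. Depth limits the bulk results: V segments had 257 to 1062 counts per bulk library, and 2 of 30 Trav segments could be tested there.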
